A study of Homo sapiens with 8 samples.

Results

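NKX6-1, NKX6-2, NKX6-3, NKX2-2 and MNX1 encode homeodomain transcription factors of the pancreas and the ventral neural tube. The analysis covered the H3K27ac peaks in the body of each of these 5 genes and in the 50 kb on either side, out of 20007 protein-coding genes in the annotation. The mark, acetylated lysine 27 of histone H3, had been mapped by ChIP-seq (sequencing of immunoprecipitated chromatin) in pancreatic progenitors (PPs) differentiated from the human embryonic stem cell line MEL1, an established line that in the study carries GFP at 1 INS allele. All PPs were grown in EF6, a basal DMEM medium with B27, EGF, bFGF and a TGFβ inhibitor, and received either the solvent DMSO (2 libraries) or 1 μM I-BET151, an inhibitor of the BET bromodomain proteins that bind acetylated lysines (2 libraries), for 7 days. Each ChIP library was set against an input library of unprecipitated chromatin, and the 4 inputs have no list of their own. No label says that libraries with different numbers came from separate cultures, so p-values measure only the spread between these libraries.

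NKX6.1, the protein of NKX6-1, is a transcriptional repressor that marks multipotent PPs and is required for β cells, and NKX6.2 is its close relative in the early pancreas and the neural tube. NKX6-3 is best known from the stomach. NKX2.2 acts in endocrine specification and β cell identity, and MNX1 (also called HLXB9) is needed for the dorsal pancreatic bud and later in β cells; in the spinal cord it marks motor neurons. H3K27ac lies at active promoters and enhancers, usually as broad domains that flank the start of a transcribed gene.

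The 5 windows held 34 of the 53053 peaks, with 8 in DMSO 1, 10 in DMSO 2, 9 in I-BET151 1 and 7 in I-BET151 2. Peaks that shared at least 1 bp were joined to 12 of the 15752 regions of the series, of which 6 were called in all 4 libraries, 1 in 3, 2 in 2 and 3 in 1. Nearly all of this acetylation lay at NKX6-1 and MNX1. NKX6-2 and NKX6-3 had only weak peaks away from their starts, and NKX2-2 had none in any library. The label PP was checked against promoter peaks, meaning a summit within 3 kb of a start: 7 of 8 PP markers had one in every library (PTF1A, the acinar and multipotent factor, had none), against 0 of 6 endocrine, 1 of 8 neural, 1 of 5 pluripotent, 1 of 4 hepatic and 1 of 5 mesenchymal markers. Of all protein-coding genes, 45.6% had a promoter peak in every library. The lists held 12312 to 14248 peaks from about 7.76 to 9.84 M ChIP reads and 2.67 to 3.04 M input reads per library (M, 1e+06), as worked out from the deposited values.

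At NKX6-1 (ENSG00000163623.10; hg38 chr4:84491985-84499292, minus strand; no other protein-coding gene in the window) both ends of the gene carried a peak in every library, and both peaks were taller with I-BET151. The broad peak near the start reached its summit at 1.01 kb into the gene and stopped 127 to 183 bp short of the start in the 4 libraries. It spanned chr4:84496316-84499165, of which 32.9% was untranslated exon, 23.5% coding exon and 43.6% intron. With 2850 bp it was among the widest in the data: only 0.746% of the regions called in all 4 libraries were wider. The second peak, chr4:84492677-84493865, had its summit 6.06 kb into the gene, in the 3′ untranslated exon of the canonical transcript.

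**Figure D1:**
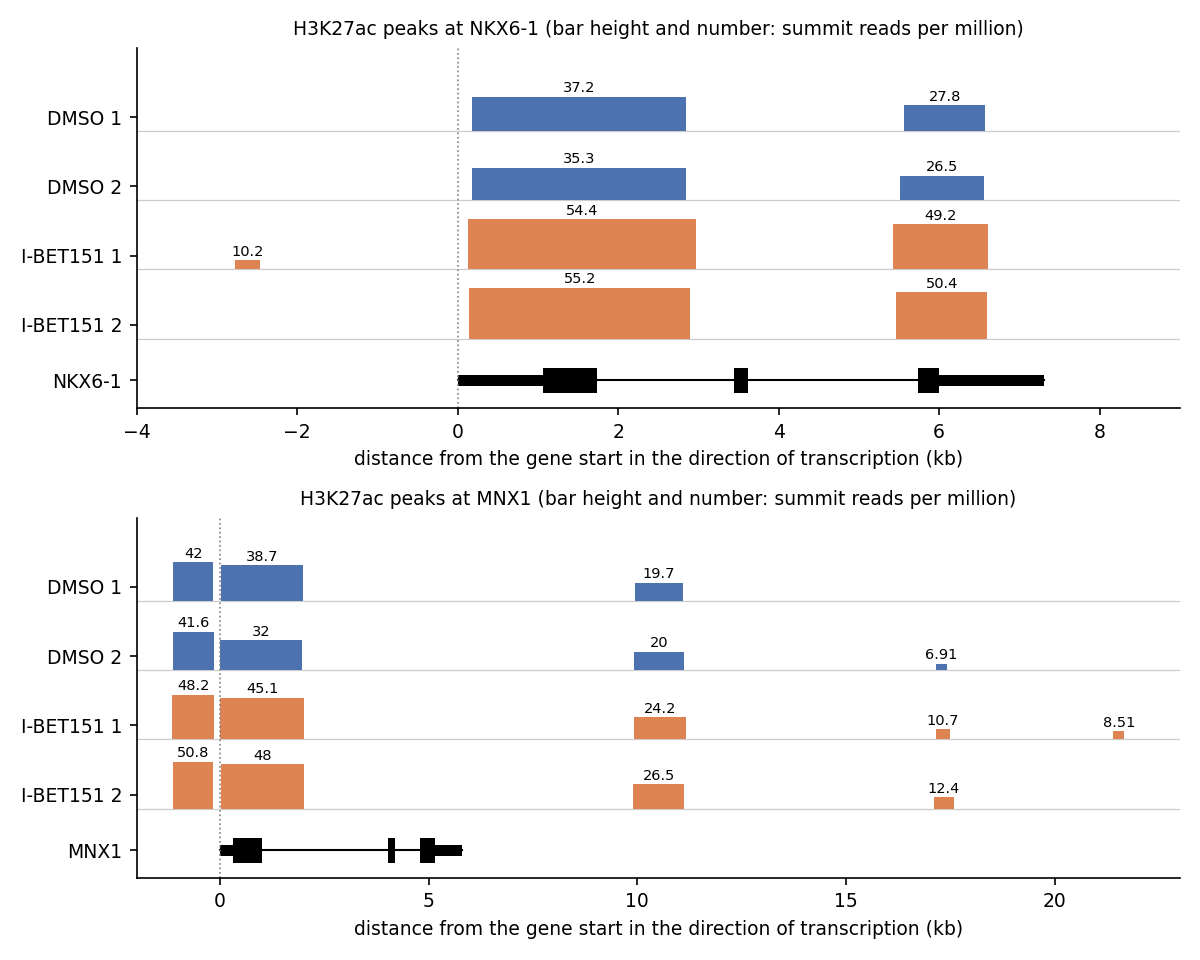
H3K27ac peaks at NKX6-1 (top) and MNX1 (bottom), by distance from the gene start in kb in the direction of transcription; blue, DMSO; orange, I-BET151; the height of a bar and the number above it give ChIP reads at the summit per 1e+06 ChIP reads (RPM), and the black models show the canonical transcript with coding exons thick. Bars at the start of NKX6-1 stand at 37.2 and 35.3 in DMSO and at 54.4 and 55.2 in I-BET151, and a gap at the canonical MNX1 start recurs in all 4 libraries.

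ChIP reads at the summit, worked out from the fold and the p-value and given as reads per 1e+06 ChIP reads (RPM), gave the clearest separation. At the 3′ peak they were 27.8 and 26.5 RPM in DMSO 1 and 2 and 49.2 and 50.4 in I-BET151 1 and 2. The groups did not overlap and stood far apart, with means of 27.1 ± 0.87 and 49.8 ± 0.81 (SD, n = 2 each), a ratio of 1.84. An exact two-sided permutation test of 2 against 2 libraries cannot go below p = 0.33, the value this peak gave. limma, fitted over the 9888 regions called in all 4 libraries with resolved reads, put the difference at 0.88 on the log2 scale (SE 0.13, adjusted p = 2.52e-10), and 0.748% of all regions had a larger one. The call held without any 1 library, with a highest limma adjusted p of 3.51e-05. In the ranking of each library, 41.7% and 38.2% of the peaks of DMSO 1 and 2 had a higher summit RPM than the 3′ peak, against 3.88% and 4.09% in I-BET151 1 and 2.

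The start peak showed the same order with a smaller ratio. It held 37.2 and 35.3 RPM in DMSO and 54.4 and 55.2 in I-BET151, or 36.2 ± 1.4 against 54.8 ± 0.59 (SD, n = 2 each; ratio 1.51). Both I-BET151 libraries were again above both DMSO libraries. The limma log2 difference was 0.60 (SE 0.14, adjusted p = 0.000408), a size that 2.89% of all regions exceeded. That call was lost when I-BET151 1 (adjusted p = 0.121) or I-BET151 2 (adjusted p = 0.128) was left out of the limma fit, where the lone I-BET151 library is assumed to vary like the others.

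The fold enrichment that the authors' peak caller gave at the same summits did not separate the groups in the same way. At the 3′ peak it was 7.12, 5.56, 10.8 and 15.0 in DMSO 1, DMSO 2, I-BET151 1 and I-BET151 2, so the groups kept apart. At the start peak it was 4.39, 11.3, 18.2 and 8.24, and the groups overlapped. The summit fell at a different place in the broad domain in each list, at 1.30, 1.00, 1.01 and 1.65 kb from the start, and the local background there was 25, 8.15, 8.13 and 17 reads. The part of this background in the order of the fold values was not tested. Ranked by −log10 p, the start peak was number 5697 of 13606 in DMSO 1, 791 of 14248 in DMSO 2, 27 of 12887 in I-BET151 1 and 889 of 12312 in I-BET151 2.

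Covered length was measured next at NKX6-1, as the number of bases in its window under a peak. DMSO 1 and 2 had 3.68 and 3.71 kb, I-BET151 1 and 2 had 4.35 and 3.89 kb, and the groups did not overlap. The means were 3.70 ± 0.025 and 4.12 ± 0.33 kb (SD, n = 2 each), a difference of 0.425 kb with an exact permutation p of 0.33. I-BET151 1 held part of that gain in an extra peak of 313 bp at chr4:84501755-84502067, in intergenic sequence 2.62 kb upstream of the start, with 79 reads at its summit, or 10.2 RPM; no other library had a peak there. Leaving out I-BET151 1 lowered the gain to 0.193 kb, and leaving out I-BET151 2 raised it to 0.657 kb. The shared peaks were also wider with I-BET151, at 1009, 1041, 1189 and 1139 bp for the 3′ peak and 2668, 2672, 2850 and 2749 bp for the start peak in the order of libraries above. Both I-BET151 libraries had the wider peak at 16.0% of all regions called in 4 libraries, and the narrower one at 33.3%.

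Of the 15184 protein-coding genes with a peak in the window, 12.5% had more covered length in both I-BET151 libraries than in both DMSO libraries, and 44.4% had less. The median difference over these genes was −0.094 kb, and from the 5th to the 95th percentile it ran from −1.49 to 0.36 kb. NKX6-1 and MNX1 fell in the minority that gained: 4.06% of genes gained more than NKX6-1 and 2.70% more than MNX1. NKX6-2 was among the 44.4% with less.

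The sequence just upstream of NKX6-1, which no peak covered, is given because the acetylated domain stops short of it. It is the RefSeq sequence (hg38, chr4:84499293-84499542, minus strand) of the 250 bases before the start, with the matches to CCAAT and TGACGT (the core of a cAMP response element) in capitals.
NKX6-1 upstream: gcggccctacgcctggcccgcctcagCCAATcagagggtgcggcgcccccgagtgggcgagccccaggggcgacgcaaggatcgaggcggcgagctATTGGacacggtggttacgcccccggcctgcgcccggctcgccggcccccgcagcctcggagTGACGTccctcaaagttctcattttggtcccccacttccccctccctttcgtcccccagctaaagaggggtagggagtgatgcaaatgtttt
It has a GC content of 67.6%, and 25.4% of the 35116 RefSeq promoters of this length have a higher one. The search, on both strands, covered TAATTA (homeodomain), CAAGTG (NKX2 type), TGTTTAC (FOXA), AGATAA (a factor of the GATA family), ACAATGG (SOX), ATCAATA (ONECUT), TGGGAA (RBPJ), TGANTCA (AP-1), TGACGT and CCAAT. The last of these, found 2 times here, occurred in 32.0% of all promoters, and TGACGT, found 1 time, in 7.10%.

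MNX1 (ENSG00000130675.15; hg38 chr7:156994051-157010663, minus strand) had the most covered length of the 5 genes and the same direction of difference. Peaks covered 4.70 kb of its window in DMSO 1, 5.03 kb in DMSO 2, 5.48 kb in I-BET151 1 and 5.31 kb in I-BET151 2, without overlap of the groups. The means were 4.86 ± 0.23 and 5.40 ± 0.12 kb (SD, n = 2 each), a difference of 0.533 kb with an exact permutation p of 0.33. Leaving out any 1 library gave differences from 0.370 to 0.697 kb, and keeping only peaks with a −log10 q of at least 10 gave 0.12 kb.

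Acetylation at the canonical MNX1 start was split into 2 peaks in every library. The downstream peak (chr7:157008653-157010660) lay over the first exon and part of the first intron, and the upstream peak (chr7:157010807-157011805) lay over the first exon of MNX1-AS1, the antisense RNA that is transcribed away from MNX1. Between them lay a gap of 173, 154, 146 and 200 bp in DMSO 1, DMSO 2, I-BET151 1 and I-BET151 2. ChIP-seq reads carry no information on the strand of transcription, so acetylation here cannot be assigned to MNX1 or to MNX1-AS1. RefSeq also lists an MNX1 start further downstream. The 250 bases before that start (chr7:157009436-157009685) lay wholly inside the downstream peak in every library. The RefSeq sequence of the 250 bases before the canonical MNX1 start (hg38, chr7:157010664-157010913, minus strand) is printed with the 143 bases that no peak covered in any library in capitals.
MNX1 upstream: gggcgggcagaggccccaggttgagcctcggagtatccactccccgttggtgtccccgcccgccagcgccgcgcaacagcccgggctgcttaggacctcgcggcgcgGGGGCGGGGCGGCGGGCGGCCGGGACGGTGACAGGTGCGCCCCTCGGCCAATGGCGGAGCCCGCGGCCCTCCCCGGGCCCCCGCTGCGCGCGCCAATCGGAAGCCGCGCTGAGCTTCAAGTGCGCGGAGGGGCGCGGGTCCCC
Its GC content was 78.8%, exceeded by 4.15% of promoters. CCAAT was found 2 times and CAAGTG 1 time, and 9.50% of all promoters held CAAGTG.

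The downstream MNX1 peak held 38.7 and 32.0 RPM at its summit in DMSO and 45.1 and 48.0 in I-BET151. The groups did not overlap, although the DMSO libraries lay further apart than the I-BET151 libraries, with means of 35.4 ± 4.7 and 46.6 ± 2.1 (SD, n = 2 each; ratio 1.32). The limma log2 difference was 0.40 (SE 0.13, adjusted p = 0.0146). The call was lost without I-BET151 1 (limma adjusted p = 0.209) and without I-BET151 2 (limma adjusted p = 0.321). Fold enrichment at this peak also kept the groups apart, at 5.16 and 5.85 in DMSO and 15.3 and 9.93 in I-BET151.

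The upstream peak over MNX1-AS1 was the tallest of the 12 regions in DMSO. Its summit RPM values were 42.0 and 41.6 in DMSO and 48.2 and 50.8 in I-BET151, a ratio of 1.18 without overlap. It did not pass limma (log2 difference 0.24, SE 0.15, adjusted p = 0.237), but did after the libraries were centred on their medians (limma adjusted p = 0.00132), without DMSO 1 (limma adjusted p = 3.43e-04) and without DMSO 2 (limma adjusted p = 0.00638). Its width, 971, 979, 999 and 950 bp, overlapped between the groups.

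A further MNX1 region, chr7:156999491-157000757, lay 10.6 kb from the start in the direction of transcription, beyond the end of the canonical transcript and inside an intron of longer transcripts of the gene. It held 19.7 and 20.0 RPM at its summit in DMSO and 24.2 and 26.5 in I-BET151, again without overlap. The means were 19.9 ± 0.21 and 25.4 ± 1.6 (SD, n = 2 each), with a ratio of 1.28. The limma log2 difference of 0.35 (SE 0.12, adjusted p = 0.0190) passed the threshold with all 4 libraries, and was lost without DMSO 1 (limma adjusted p = 0.123), DMSO 2 (0.115) or I-BET151 2 (0.131). Fold enrichment, 3.76, 5.42, 5.33 and 7.96 in the order of libraries above, overlapped between the groups.

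Around the summit of this region the hg38 sequence, printed on the minus strand for chr7:156999895-157000194, was rich in G and C. It held 80.3% GC against a median of 69% over all regions, and 3.86% of regions had more; none of the 10 motifs searched was found, so no letter is in capitals.
MNX1 10.6 kb region: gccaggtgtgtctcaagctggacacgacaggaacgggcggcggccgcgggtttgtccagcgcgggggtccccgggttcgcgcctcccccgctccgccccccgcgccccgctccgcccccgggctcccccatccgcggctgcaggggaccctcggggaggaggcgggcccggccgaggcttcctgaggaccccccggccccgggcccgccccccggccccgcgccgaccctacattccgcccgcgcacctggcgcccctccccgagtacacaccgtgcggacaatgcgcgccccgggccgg
At 17.3 kb lay the region of the MNX1 window that was called in 3 libraries, chr7:156993072-156993561, in intergenic sequence. It had 6.91 RPM at its summit in DMSO 2, 10.7 in I-BET151 1 and 12.4 in I-BET151 2, and no peak in DMSO 1. With 68, 83 and 100 reads these summits were among the weaker ones of their lists, where 93.4%, 85.9% and 86.0% of peaks had a higher RPM. Its 300 bases around the summit (chr7:156993237-156993536, minus strand) contained 1 match to the RBPJ letters TGGGAA, in capitals as read on this strand, and so did 20.0% of all regions.
MNX1 17.3 kb region: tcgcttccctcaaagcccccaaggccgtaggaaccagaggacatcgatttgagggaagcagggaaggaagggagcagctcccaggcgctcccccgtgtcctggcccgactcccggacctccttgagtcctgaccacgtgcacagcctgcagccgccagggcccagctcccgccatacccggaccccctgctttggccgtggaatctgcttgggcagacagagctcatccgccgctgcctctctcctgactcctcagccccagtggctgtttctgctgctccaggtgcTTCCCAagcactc
I-BET151 1 alone had a peak at 21.6 kb (chr7:156988991-156989254, 66 reads at the summit).

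The last region of the MNX1 window belonged to a neighbour. It lay 60.7 kb from the MNX1 start and 207 bp from the start of NOM1, a nucleolar protein gene, at chr7:156949695-156950363. Its summit RPM values were 27.8 and 25.3 in DMSO and 28.2 and 30.6 in I-BET151, a ratio of 1.11 that did not pass limma (log2 difference 0.15, SE 0.12, adjusted p = 0.387) except after centring on the library medians (adjusted p = 0.0127). Here the fold enrichment had the opposite order, 4.27 and 5.67 in DMSO against 3.61 and 3.75 in I-BET151, with a local background of 19, 12.1, 23 and 21 reads.

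**Figure D2:**
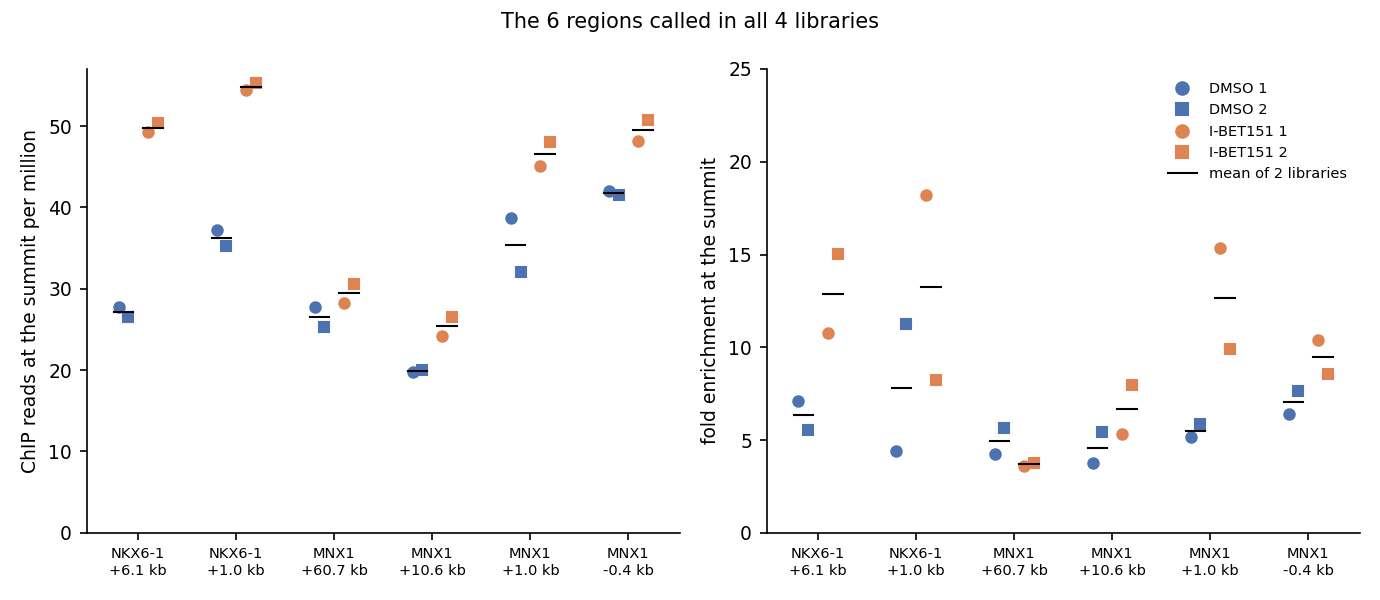
ChIP reads at the summit in RPM (left) and fold enrichment over the local background (right) in each library at the 6 regions of the NKX6-1 and MNX1 windows that were called in all 4 libraries, named by distance from the gene start in kb; circles and squares are replicates 1 and 2, and lines are means of 2 libraries. The RPM values of both I-BET151 libraries exceed those of both DMSO libraries at all 6 regions, against 29.8% of all such regions. The fold does so at 3, against 25.4% of all regions called in 4 libraries.

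All 6 regions shared by the 4 libraries, including the region at the NOM1 start, had a higher summit RPM in both I-BET151 libraries than in both DMSO libraries. Over all 9888 regions this held for 29.8%. The depths behind RPM are estimates. Before scaling to depth, summit reads overlapped between the groups at the MNX1 10.6 kb, MNX1-AS1 and NOM1 regions. The limma difference was higher in I-BET151 at an adjusted p under 0.05 for 4 of the 6, against 10.1% of all regions. The 4 became 2 without I-BET151 1, 1 without I-BET151 2 and 1 with the replicate number as a block, each time with the NKX6-1 3′ peak among them, and 6 after centring on the library medians. In the fit with all 4 libraries and neither block nor centring, 998 regions were higher and 1451 lower. After centring on the library medians 2693 were higher and 1787 lower. The median log2 difference over all regions was 0.00072, and from the 5th to the 95th percentile it ran from −0.55 to 0.49. The smallest and largest numbers of reads behind a shared summit were 157 and 444, which give a counting error of 7.98% and 4.75%.

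**Figure D3:**
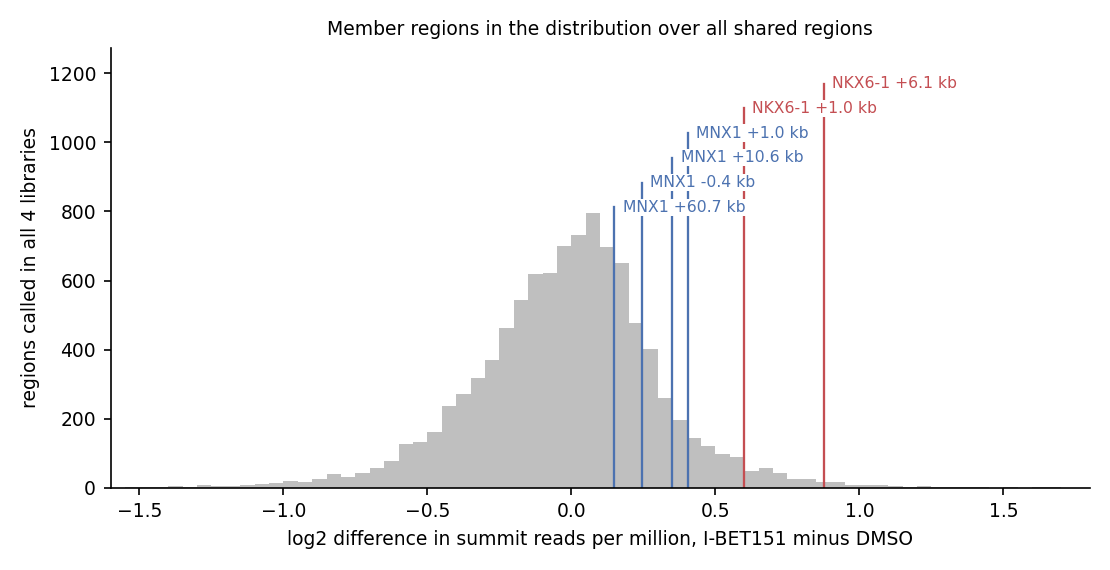
Distribution of the log2 difference in summit RPM (I-BET151 minus DMSO, x axis) over the 9888 regions called in all 4 libraries with resolved reads (y axis, number of regions per bin). Vertical lines mark the 6 regions of the NKX6-1 (red) and MNX1 (blue) windows, named by distance from the gene start in kb. Both NKX6-1 lines, at 0.60 and 0.88, lie right of the 95th percentile at 0.49. The 4 lines of the MNX1 window lie between 0.15, the region at the NOM1 start, and 0.40.

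At NKX6-2 (ENSG00000148826.9; hg38 chr10:132783179-132786147, minus strand) the only peaks were 2 weak ones, found with DMSO in both libraries and absent from both I-BET151 lists. Covered length was 0.628 and 0.701 kb in DMSO 1 and 2 and 0 kb with I-BET151, a difference of −0.665 kb with an exact permutation p of 0.33. Both peaks lay in introns of INPP5A, an inositol polyphosphate phosphatase gene, and nearer to an INPP5A start than to NKX6-2. The nearest summit to an NKX6-2 start was 11.6 kb away in both DMSO libraries and 99.98 kb or more away in both I-BET151 libraries.

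The nearer region, chr10:132774388-132774750, had 11.9 and 11.5 RPM at its summit in DMSO 1 and 2, or 95 and 113 reads. The farther one, chr10:132754057-132754453, had 8.92 and 6.403, or 71 and 63 reads. All 4 peaks stood near the bottom of their lists: by −log10 p they ranked from 86.4% to 98.3% down. Regions called in both DMSO but neither I-BET151 library made up 8.60% of all regions, and the reverse pattern, of which these windows had 0, made up 2.81%. With only peaks of −log10 q of at least 10 neither region was left in any library, and in lists of equal length the farther one was called in DMSO 1 alone and the nearer one in no library, which left a difference of −0.177 kb with overlapping groups. In a window of 10 kb, which holds the nearer region only, the difference was −0.289 kb.

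The hg38 sequences around both summits are shown on the minus strand, since they are the only acetylated sequences of the NKX6 window on chromosome 10; capitals mark CAAGTG (NKX2 type), TGGGAA (RBPJ) and CCAAT on either strand. Of these letters CAAGTG was found in 8.04% and CCAAT in 13.4% of all regions.
INPP5A intron, chr10:132774419-132774718: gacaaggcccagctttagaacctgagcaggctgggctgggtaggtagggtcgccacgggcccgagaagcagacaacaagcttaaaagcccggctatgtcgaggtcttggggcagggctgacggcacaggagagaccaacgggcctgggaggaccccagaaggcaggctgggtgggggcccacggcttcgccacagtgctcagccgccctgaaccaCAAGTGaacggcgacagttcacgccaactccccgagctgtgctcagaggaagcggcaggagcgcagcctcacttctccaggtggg
INPP5A intron, chr10:132754044-132754343: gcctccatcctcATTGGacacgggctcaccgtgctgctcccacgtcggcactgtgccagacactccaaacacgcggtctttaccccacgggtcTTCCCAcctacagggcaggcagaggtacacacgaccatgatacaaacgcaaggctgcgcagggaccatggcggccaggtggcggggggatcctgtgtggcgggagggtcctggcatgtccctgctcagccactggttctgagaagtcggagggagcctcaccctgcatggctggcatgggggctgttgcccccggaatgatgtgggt
No match to TAATTA, the homeodomain core, was found at any of the 12 regions, and 0.660% of all regions held one. A match is a description of the letters, and a missing one says only that they are not in this window of 300 bases.

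NKX2-2 (hg38 chr20:21511017-21514064, minus strand) had 0 kb of peaks in all 4 libraries. The nearest summit was 210.5 kb from a start in every library, and no other protein-coding gene lies in the window. Of all protein-coding genes 24.1% had no peak in the same window. The weakest summits that were called held 14 to 17 reads, or 1.73 to 2.19 RPM. Peaks were called against the local background, so these values set no fixed limit. Acetylation below them, or above them where the background is high, could be missing from these lists. For comparison with the genes above, the RefSeq sequence of the 250 bases before the upstream start of NKX2-2 (hg38, chr20:21522690-21522939, minus strand) is given with matches in capitals.
NKX2-2 upstream: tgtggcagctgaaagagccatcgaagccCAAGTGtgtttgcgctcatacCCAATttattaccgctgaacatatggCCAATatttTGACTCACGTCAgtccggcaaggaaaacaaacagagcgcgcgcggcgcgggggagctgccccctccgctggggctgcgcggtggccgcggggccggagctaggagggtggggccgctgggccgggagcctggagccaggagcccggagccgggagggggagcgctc
With a GC content of 66.0% it is close to the 67.6% of NKX6-1, and it held CCAAT 2 times, CAAGTG 1 time and overlapping matches to TGANTCA and TGACGT.

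NKX6-3 (hg38 chr8:41645177-41650817, minus strand) had a single peak, in DMSO 2 alone, at chr8:41630398-41630685. It lay in intergenic sequence 20.2 kb from the canonical start with 38 reads at its summit, or 3.86 RPM, and 98.1% of the peaks of that library had more. Measured to any NKX6-3 start, the nearest summit was 16.8 kb away in DMSO 2 and 68.9 kb away in the other 3 libraries. Those 3 libraries covered 0 kb of the window. This difference, −0.144 kb, rests on 1 library and gave an exact permutation p of 1.

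**Figure D4:**
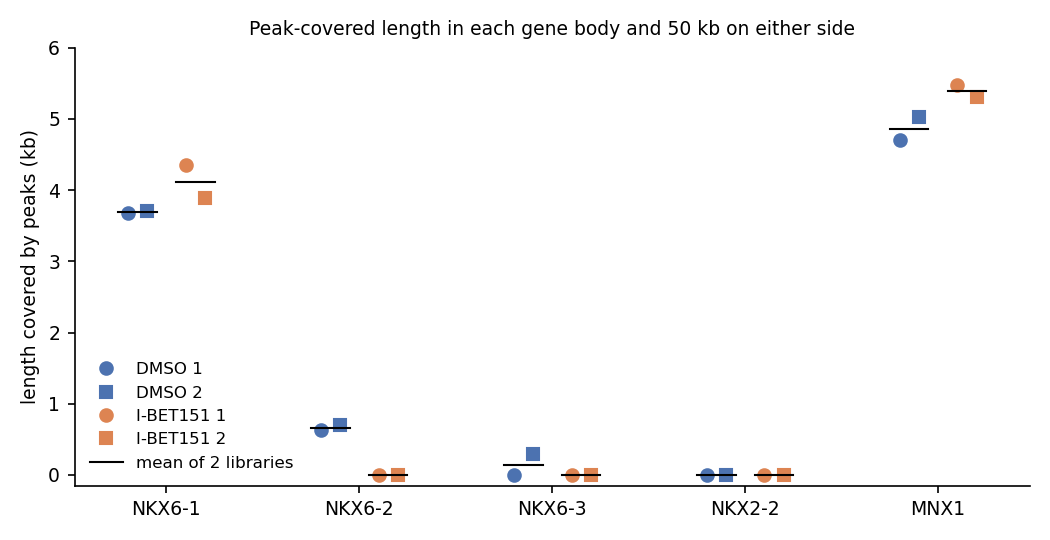
Length covered by H3K27ac peaks (kb) in the body of each of the 5 genes and 50 kb on either side, per library; circles and squares are replicates 1 and 2, blue is DMSO, orange is I-BET151, and lines are means of 2 libraries. Points of NKX6-1 and MNX1 lie between 3.68 and 5.48 kb with I-BET151 above DMSO, NKX6-2 is at 0.628 and 0.701 kb in DMSO and at 0 in I-BET151, and NKX2-2 is at 0 throughout.

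Summed over the 5 windows, covered length was 9.005 kb in DMSO 1, 9.729 kb in DMSO 2, 9.832 kb in I-BET151 1 and 9.202 kb in I-BET151 2. The groups overlapped in this sum, with gains at NKX6-1 and MNX1 set against losses at NKX6-2 and NKX6-3. In order of mean level in DMSO the genes ran MNX1, NKX6-1, NKX6-2, NKX6-3 and NKX2-2. MNX1 exceeded NKX6-1 and NKX6-1 exceeded NKX6-2 in every library, whereas NKX6-3 and NKX2-2 were equal at 0 kb in 3 libraries.

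Likeness in covered length over the 4 libraries was measured by Euclidean distance of log2(kb + 0.5) over 4 values. The protein-coding genes on other chromosomes most like NKX6-1 were NCOA7 (distance 0.0870), DLGAP1 (0.0928) and GPN2 (0.0994). For MNX1 they were CD2BP2 (0.0998), ARID1A (0.138) and GPR19 (0.140). NCOA7, for example, had 3.77, 3.77, 4.10 and 3.95 kb in DMSO 1, DMSO 2, I-BET151 1 and I-BET151 2.

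Other genes of the network were counted in the same windows, where 12.5% of all genes with peaks gained, 44.4% lost, and 24.1% of all genes had no peak. Of 15 progenitor factors 14 had peaks, 8 with more covered length in both I-BET151 libraries, 1 with less (HNF4A) and 5 with overlap, at a median difference of 0.668 kb. ONECUT1 (HNF6), a hepatic and pancreatic progenitor factor, had 5.23, 4.70, 7.86 and 8.01 kb, and SOX9, a ductal and progenitor factor, had 3.74, 3.11, 4.67 and 4.10 kb in the order DMSO 1, DMSO 2, I-BET151 1 and I-BET151 2. Of 13 endocrine factors only 4 had peaks (2 more, 1 less, 1 overlap; median 0.0295 kb), and NEUROG3, NEUROD1 and INSM1 were among those with none, like NKX2-2. Of 15 other homeobox genes 4 had peaks (1 more, 2 less, 1 overlap, median −0.0895 kb). HHEX, a foregut homeobox gene, was the only one of these 15 with a promoter peak, and its window held 4.08, 4.08, 1.92 and 2.26 kb. NKX6-1 and MNX1 had a promoter peak in every library, as did 14 of the 15 progenitor factors (not PTF1A), 1 of the 15 other homeobox genes and 45.6% of all protein-coding genes.

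Summed covered length of the marker lists differed between the groups in both directions: the PP and endocrine sums were higher in both I-BET151 libraries, the hepatic, mesenchymal and neural sums were lower, and the pluripotent sums overlapped. PP markers had 39.7 to 42.2 kb in DMSO and 47.2 to 48.7 kb in I-BET151 (PTF1A at 0). Hepatic markers had 4.12 to 4.24 and 1.96 to 2.57 kb (1 of 4 with peaks; ALB, AFP and TTR at 0), and mesenchymal markers 4.08 to 4.81 and 2.16 to 2.65 kb (3 of 5; COL1A2 and TWIST1 at 0). Endocrine markers had 6.72 to 6.92 and 8.08 to 8.52 kb (2 of 6; NEUROG3, NEUROD1, GCG and CHGA at 0). The 2 with peaks went opposite ways, INS at 6.37, 6.63, 8.08 and 8.52 kb, and SST at 0.349 and 0.289 kb in DMSO and 0 in I-BET151. The INS window thus made up most of the endocrine sum. INS had no promoter peak in any library, and the peaks of its window were not assigned to a gene. Neural markers matter here because MNX1 and the NKX genes are used in the neural tube. They had 6.44 to 6.81 and 6.11 to 6.39 kb (4 of 8, with PAX6, OLIG2, SOX1 and NEUROG2 at 0). Among those with peaks, ELAVL3 was lower with I-BET151, at 2.832, 2.567, 2.233 and 1.892 kb with no promoter peak. TUBB3, with a promoter peak in every library, was higher, at 3.077, 2.982, 3.225 and 3.359 kb. LHX3 and ISL2 overlapped between the groups. Pluripotent markers had 2.08 to 2.19 and 1.799 to 2.288 kb (1 of 5; POU5F1, NANOG, SOX2 and DPPA4 at 0). Their part in the differences at NKX6-1 and MNX1 was not tested, and in bulk chromatin a change in the number of cells of a type and a change in acetylation per cell cannot be told apart.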

How the data were processed

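H3K27ac ChIP-seq peak lists of 4 libraries (DMSO 1 and 2, I-BET151 1 and 2) were analysed; groups and numbers came from the titles. According to the study's methods and the submitters' processing notes, the authors aligned reads to hg38 with Bowtie2 2.2.5, removed duplicates and called peaks per library with MACS2 2.1.2 at default settings, without pooling. The deposited lists give each peak's interval, its summit, its fold enrichment (a ratio to the local background), and its −log10 p-value and −log10 q-value. The deposited score was not used.

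Gene bodies came from GENCODE release 44 (hg38), and windows reached 50 kb beyond them. The genes and the gene lists were chosen with earlier results of these data known. All 5 genes and each region in their windows called in at least 2 libraries were named. So were the 3 nearest profiles of NKX6-1 and MNX1 among protein-coding genes on other chromosomes. Regions called in 1 library were named since they were few, after their values were seen. ChIP reads at the summit were worked out from fold (pseudocount 1) and p-value, to within 0.005 of a whole read: 98.4% to 99.1% of peaks were resolved. Depths assume a genome of 2.7e+09 bp and an extension equal to the shortest peak (272, 247, 254 and 249 bp); a read counts at a summit when its extended fragment covers it. Depths are therefore estimates, and intervals from counts cover counting error only.

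Covered length was compared by an exact two-sided permutation test over 6 assignments (smallest p 0.33). limma 3.58.1 (R 4.3.3), with a trend on mean height and Benjamini-Hochberg adjustment, was added after the values were seen; its fit gave all regions of one height the same spread, so its p-values rest on that assumption. Scripts (Python 3.11.15) were tested on simulated data. Sequences came from hg38 and RefSeq promoter tables. The input libraries were not analysed here as separate samples. Some genes of the lists are not reported here by name.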

Additional observations from a re-analysis of the deposited data

How the results depend on the processing

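The gains at NKX6-1 and MNX1 and the absence of peaks at NKX2-2 kept their direction under every alternative for covered length: windows of 10 or 100 kb, −log10 q of at least 5 or 10, top-ranked lists of equal length, peaks nearest to the gene's own start, and leaving out each library. The gain was 0.193 to 0.657 kb at NKX6-1 and 0.370 to 0.697 kb at MNX1 without 1 library; with −log10 q of at least 10 the gain at MNX1 was 0.12 kb. The loss at NKX6-2, −0.701 to −0.628 kb without 1 library, was −0.289 kb with the 10 kb window and −0.177 kb with lists of equal length, where the groups overlapped (exact permutation p of 1), and became 0 with −log10 q of at least 10 and with peaks nearest to its own start. At NKX6-3 the difference became 0 with the 10 kb window, and ran from −0.288 to 0 kb without 1 library (0 without DMSO 2). The difference in summed covered length, 0.15 kb, ran from −0.212 kb (without DMSO 1) to 0.512 kb, and was −0.165 kb without I-BET151 1. The difference in peak number, −1, became 0.5 with the 10 kb window, 1 with lists of equal length and 1 with nearest starts, 0 at either −log10 q, and −2 to 0 without 1 library. Lost regions, 2, numbered 1 with the 10 kb window, 1 and 0 with −log10 q of at least 5 and 10, 0 with lists of equal length and 0 with nearest starts, and 2 to 3 without 1 library. Gained regions, 0, numbered 1 with −log10 q of at least 5, 1 with lists of equal length and 0 to 2 without 1 library. Regions whose height was above DMSO in both I-BET151 libraries numbered 3 by fold, against 25.4% of all regions called in 4 libraries. They numbered 6 by RPM, against 29.8%, and 3 to 5 by fold without 1 library. The cause of these shifts was not tested.

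Over all shared regions limma called 998 higher and 1451 lower (3378 at an unadjusted p under 0.05). Centring on the library medians gave 2693 higher and moved the median log2 difference to 0.056. Without 1 library 694 to 1975 were higher and 633 to 1437 lower. Same-numbered libraries were not shown to be pairs: their deviations over 9888 regions correlated at 0.055, and the labels give no shared batch. With the replicate number as a block limma called 610 higher and 960 lower; of the 4 calls at NKX6-1 and MNX1 the NKX6-1 3′ peak kept its own (adjusted p = 0.000216), and those at the NKX6-1 start (0.0522), the MNX1 start (0.214) and 10.6 kb (0.0819) did not pass. Covered length with the replicate block differed by 0.425 kb at NKX6-1.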
